A study of Mus musculus with 3 samples.

Results

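The liver cells described here carried mRNA of a set of interferon-induced genes, Ly6i, Cxcl9, Cxcl10, Acod1 and Slamf8, together with Ccr2, the chemokine receptor of blood monocytes. They were picked by a rule on unique molecular identifiers (UMIs, each standing for 1 captured mRNA molecule) rather than by clustering. A cell had to hold at least 3 UMIs of these 5 genes summed and at least 1 UMI of Ccr2. It could hold at most 2 UMIs of the Kupffer cell genes Clec4f and Vsig4, at most 1 UMI of the neutrophil genes Retnlg and Cxcr2, and no UMI of Cd3e (T cells), Cd79a (B cells) or Siglech (plasmacytoid dendritic cells). In all, 518 of 42971 cells that passed the cell filter (200 to 4000 genes detected, at most 25% mitochondrial UMIs) met the rule, and they are called Ly6i/Cxcl9 cells below, a short name for the rule, since 14 cells of the WT library and 54 of the HFHC pool (both described next) held neither of these genes and were chosen on the other 3. The same UMIs that chose them are the ones described, so every difference between chosen cells and other cells is a description of the choice and carries no test.

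The study asked how Chi3l1, a chitinase-like secreted protein whose gene is written Chil1 in the tables, bears on liver macrophages in metabolic liver disease, and captured liver cells of mice of the C57BL/6J background on the BD Rhapsody system. The deposited labels list 3 samples, and 2 of them have a table of UMI counts. The first, called the WT library here, is titled MCD, carries the run name APAP0h inside the table, and corresponds by elimination to the normal-diet wild-type library of the study's methods, so its diet is not settled by the sources used here. The second, called the HFHC pool, holds wild-type and Chi3l1-/- (Chil1-/- in the labels) mice together, all given a high-fat, high-cholesterol diet for 16 weeks according to the methods. The titles spell that diet HCFC for the wild type and HFHC for the knockout. The Chi3l1-/- line is a purchased knockout of the whole body, not of 1 cell type. Nothing in the table assigns a cell of the pool to a genotype, the number of mice behind each library is not given, and the tag library was not analysed here. The labels name parenchymal cells as the starting material, while the methods describe non-parenchymal cells enriched on a density gradient. With 1 library per condition, diet, genotype mix, capture and sequencing cannot be told apart, and no p-value is given.

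Classical monocytes leave the blood, enter the inflamed liver through CCR2 and there turn into macrophages or, in part, into cells with dendritic features. Interferon-gamma, secreted by T and NK cells, acts on them through its receptor and induces guanylate-binding proteins, immunity-related GTPases, antigen-presentation genes and the chemokines CXCL9 and CXCL10, which call further T cells through CXCR3. Type I interferons act through a receptor of their own and induce an overlapping set that includes Isg15 and the Ifit genes. Ly6i encodes a small GPI-anchored protein of the Ly6 family, Acod1 the enzyme that makes itaconate, and Slamf8 a receptor of the SLAM family on myeloid cells.

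Both responses are known to act on their genes through short DNA elements, and letters that match these elements stand in front of many of the genes the results below turn on. RefSeq promoters (build GRCm38.p6, 250 bases before to 50 bases after the start, 27025 genes) were searched on both strands for an interferon-stimulated response element, written as GAAA, any 2 bases and GAAA again, and for a gamma-activated site written TTCNNNGAA. The stretches shown are 1 element each with its flanks, read along the strand of the gene, with the motif in capitals, and were picked for genes named in the results below.
Cxcl10, response element, chr5:92349085-92349110: acgctttgGAAAGTGAAActtacctc
Gbp2, response element on the opposite strand, chr3:142620596-142620621: tcttttagTTTCACTTTCactgtctt
Gbp5, gamma-activated site, chr3:142496874-142496898: gccgttatTTCTCAGAAccaagcac
Gbp5, response element on the opposite strand, chr3:142496761-142496786: ttgtgtagTTTCAATTTCagtttaga
Igtp, gamma-activated site, chr11:58199503-58199527: ctagccatTTCTAGGAActgaaact
Igtp, response element, chr11:58199514-58199539: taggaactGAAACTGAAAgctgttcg
Irf1, gamma-activated site, chr11:53769916-53769940: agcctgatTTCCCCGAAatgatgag
Icam1, gamma-activated site, chr9:21015890-21015914: cgcgaggtTTCCCGGAAagtggccc
Isg15, response element, chr4:156200873-156200898: aggaaaagGAAACCGAAAcagaaaat
Ifit1, response element on the opposite strand, chr19:34640777-34640802: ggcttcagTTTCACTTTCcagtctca
Chil3, gamma-activated site, chr3:106167720-106167744: atacccacTTCTTAGAAacatagct
The Igtp elements lie next to each other, and in Gbp5 both kinds of element lie in the same promoter. Isg15 held 3 overlapping response elements, of which 1 is shown.

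Of the rule genes, Cxcl9 (chr5:92321331-92328079) and Cxcl10 (chr5:92346638-92348889) are neighbours, Ly6i (chr15:74979534-74983434) lies in the Ly6 cluster next to Ly6a, Ly6c1 and Ly6c2, Acod1 lies at chr14:103047012-103056573 and Slamf8 at chr1:172581377-172590873 (GRCm38.p6). Paralogs of the Ly6 cluster can share reads. Of 1156 windows of 50 bases in the Ly6i transcripts, 31 (2.68%) occurred in Ly6a transcripts, 4 in Ly6c1 and 0 in Ly6c2, and the remaining windows were in none of these neighbours' transcripts.

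The WT library held 30734 cells and 53720863 UMIs, and the HFHC pool 21601 cells and 71981673 UMIs, of which 23346 and 19625 cells passed the filter with medians of 1322.5 and 1622 UMIs. The cell barcodes of 756 cells occurred in both libraries. They were carried by 557 of 23346 and 689 of 19625 filtered cells, and by 3 of 168 and 12 of 350 Ly6i/Cxcl9 cells. Scrublet, a doublet caller, marked 8.17% and 2.0% of filtered cells, and 5 and 10 of the Ly6i/Cxcl9 cells, which were kept.

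In the WT library 168 cells met the rule, 0.720% of filtered cells (exact binomial 95% interval 0.615 to 0.837%). In the HFHC pool 350 did, 1.78% (1.60 to 1.98%). These cells were deeper than the average cell, with medians of 4317 and 7121.5 UMIs, and the pool was the deeper library. With all cells brought to 2000 UMIs at random before the rule was applied, 113 and 187 cells met it, 1.42% and 2.17% of the cells of that depth. The order of the libraries stayed the same and the gap became smaller. These intervals cover counting error only, and the spread between animals is unknown. As for the Ccr2 limit, 211 cells of the WT library and 442 of the pool met every other limit but had no Ccr2 UMI, and 11 and 15 of those carried 4 or more UMIs of the monocyte genes Ly6c2, Chil3, F13a1 and Vcan. Just inside the limit on the 5-gene sum, 22 and 51 cells held exactly 3 UMIs, and just outside it 43 and 94 held 2.

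The 5 genes were not carried by all chosen cells alike. Ly6i had a UMI in 93 of 168 cells of the WT library (55.4%) and in 234 of 350 of the pool (66.9%), with medians of 4 and 5 UMIs in the positive cells and up to 43 and 53 in a single cell. Cxcl9, the most abundant of the set, had 2631 UMIs in 129 cells (76.8%) and 3813 UMIs in 167 cells (47.7%). Cxcl10 was found in 68 and 121 cells, Acod1 in 31 and 76 and Slamf8 in 103 and 235. The sum of the 5 genes ran from 3 to 173 UMIs with a median of 13.5 in the WT library and from 3 to 270 with a median of 10 in the pool. A single gene of the set met the limit alone in 30 and 90 cells, while all 5 genes were seen together in 8 and 19. Ly6i and Cxcl9 were seen in the same cell in 68 and 105 cells, and Cxcl9 with Cxcl10 in 56 and 69. Ly6i was the only one of the 5 genes in 41 cells of the pool and 7 of the WT library. Relative to all UMIs of the summed cells (CPM), Ly6i stood at 694 in the pool and 867 in the WT library, and Cxcl9 at 1468 and 3282.

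**Figure D1:**
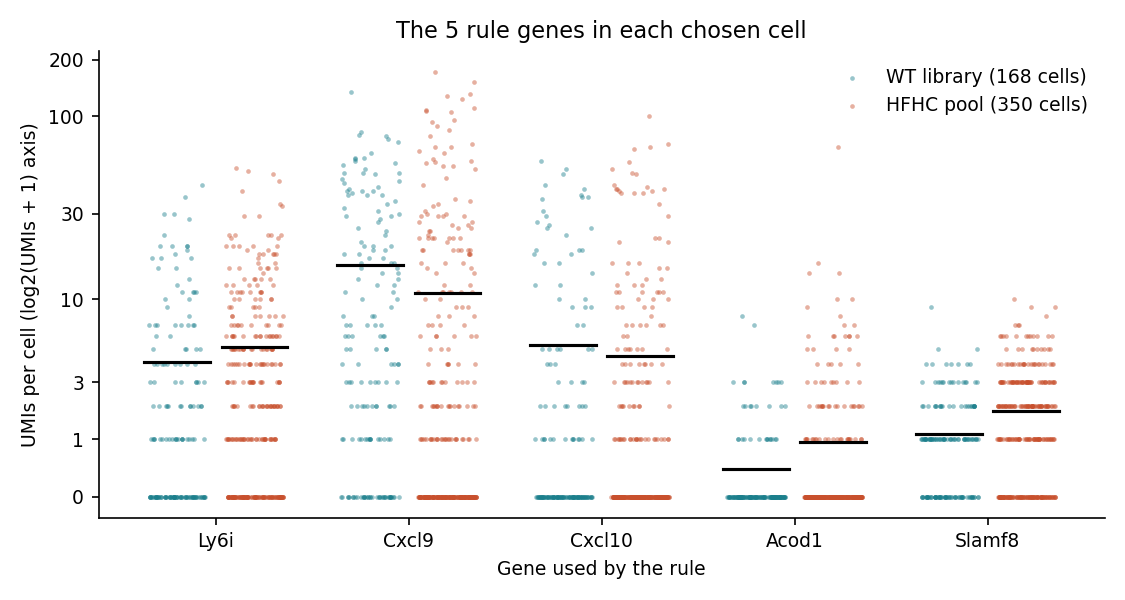
UMIs per cell (vertical axis, log2(UMIs + 1) spacing) of the 5 rule genes in each of the 168 Ly6i/Cxcl9 cells of the WT library and the 350 of the HFHC pool; each point is a cell and each black line the mean of that library. Cxcl9 and Cxcl10 spread widest, reaching 172 and 101 UMIs in a cell of the pool, whereas Slamf8 reached 9 and 10 UMIs and Acod1 was at 0 in most cells.

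Cells were also thinned to 2000 UMIs and the shares with a UMI were set beside B cells, which should lack these genes. Shallower cells were left out, so the thinned shares of B cells rest on the deepest 207 of 1301 in the WT library and 751 of 886 in the pool. The Ly6i/Cxcl9 cells were chosen on these UMIs and the B cells were not, so the gap between them follows from the rule. Without that choice, 8 of 1301 and 10 of 886 B cells and 158 of 3196 and 84 of 414 Kupffer cells reached a 5-gene sum of 3, against 638 of 23346 and 1112 of 19625 filtered cells. How many of the chosen cells reached the limit through free RNA was not tested. Ly6i was seen in 49.1% and 49.4% of Ly6i/Cxcl9 cells but in 0.966% (0.117 to 3.45%) and 0.133% (0.00337 to 0.740%) of B cells and in 0.147% and 0.269% of Kupffer cells. These are the resident macrophages, defined here by the summed UMIs of Clec4f, Vsig4 and Timd4, with Ly6i/Cxcl9 cells left out. Without thinning, 0.231% and 0.677% of B cells had a Ly6i UMI, and their median cell held 1393 and 2741 UMIs. The chemokine shares in Kupffer cells were higher, with Cxcl9 in 4.33% and 10.5% and Cxcl10 in 4.37% and 8.60% of thinned cells, beside B cells at 2.90% and 1.20% for Cxcl9 and 0.966% and 0.932% for Cxcl10. Slamf8 was seen in 11.4% and 10.6% of type 2 dendritic cells (Cd209a, Clec10a). The share of Ly6i in Kupffer cells was thus at that of B cells. For Cxcl9 in the WT library the intervals of Kupffer and B cells (3.6 to 5.16% and 1.07 to 6.20%) overlapped. For Cxcl9 in the pool, the intervals of Kupffer and B cells (7.56 to 14.1% and 0.549 to 2.26%) did not overlap.

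The working name of these cells is interferon-activated monocytes turning into macrophages. Only some of them carried monocyte or macrophage markers at the limits below, and no value here shows a cell turning into another. Marker ranges were set on UMIs: dendritic (Xcr1 and Clec9a together at 2 or more, or Cd209a, Flt3, Clec10a and Mgl2 together at 4 or more), then monocyte (Ly6c2, Chil3, F13a1 and Vcan together at 4 or more), then C1q (C1qa, C1qb and C1qc together at 3 or more). The monocyte range took 57 of 168 cells in the WT library (33.9%, 26.8 to 41.6%) and 154 of 350 in the pool (44.0%, 38.7 to 49.4%). The dendritic range took 54 (32.1%) and 82 (23.4%), the C1q range 19 (11.3%) and 25 (7.14%), and 38 (22.6%) and 89 (25.4%) fell in none, though some of these held such UMIs below the limits. Of the dendritic range, 31 and 54 cells met the limit on Xcr1 and Clec9a, markers of type 1 dendritic cells. The limit on Cd209a, Flt3, Clec10a and Mgl2 was met by 36 and 50, some of which met both. Whether cells of this range came from monocytes was not tested. Regardless of the other ranges, 36 (21.4%) and 56 (16%) cells held 3 or more C1q UMIs. All these ranges were set at full depth, which differs between the libraries. Thinned to 2000 UMIs, 21 of 159 and 29 of 346 cells held 3 or more C1q UMIs. Cells that held 4 or more UMIs of the monocyte genes and 3 or more of C1q numbered 9 and 22. Adgre1, which encodes the macrophage surface protein F4/80, had at least 1 UMI in 48 and 143 cells.

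**Figure D2:**
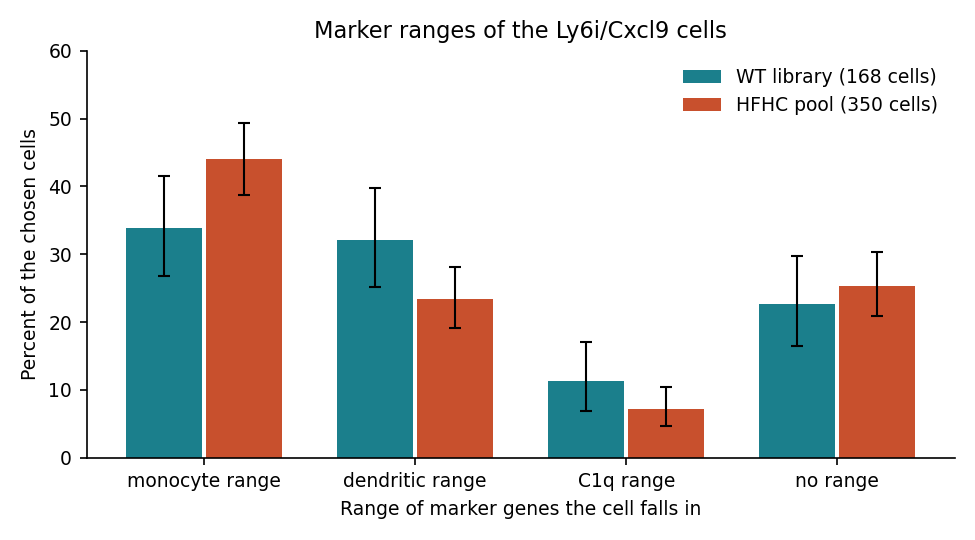
Percent of the Ly6i/Cxcl9 cells of each library (168 and 350 cells) in each marker range; bars start at 0 and error bars are exact binomial 95% intervals. Monocyte genes marked 33.9% and 44.0%, dendritic genes 32.1% and 23.4%, C1q genes 11.3% and 7.14%, and 22.6% and 25.4% reached no limit. The C1q range leaves out cells already in the dendritic or monocyte range.

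The ranges differed in which rule genes they carried, given here in CPM, a gene's UMIs relative to all UMIs of the summed cells, with exact Poisson 95% intervals. Ly6i was lowest in the dendritic range, at 393 CPM (329 to 465) in the WT library and 241 (208 to 279) in the pool, against 1530 (1370 to 1690) and 895 (840 to 954) in the monocyte range. Cxcl10 stood at 448 and 242 CPM in the dendritic range, 556 and 228 in the C1q range and 2480 and 988 in the monocyte range. Acod1 stood at 11.6 CPM (3.17 to 29.8) and 18.2 CPM (9.98 to 30.6) in the dendritic range and at 174 (125 to 237) and 209 (182 to 238) in the monocyte range. Cxcl9 stood at 2130 CPM in the dendritic and 4350 in the monocyte range of the WT library, but at 1600 and 1480 CPM in the pool. Slamf8 lay between 162 and 279 CPM in all ranges of both libraries. The cells in no range carried Ly6i at 795 and 928 CPM and Acod1 at 141 and 142 CPM, and the C1q range carried Ly6i at 1120 and 700 CPM. The dendritic range was thus the lowest for Ly6i in both libraries, and the monocyte range was the highest in the WT library only. These are genes of the rule itself. Gbp2, an interferon-induced GTPase that the rule did not use, was highest in the monocyte range as well, at 1360 (1210 to 1520) and 1060 CPM (997 to 1120) against 684 (599 to 777) and 562 (510 to 617) in the dendritic range. H2-Ab1, a chain of MHC class II, ran the other way, at 8000 and 4900 CPM in the monocyte range and 21200 and 11000 in the dendritic range. The cells in no range carried Gbp2 at 1150 and 867 CPM and Lyz2, the lysozyme gene of myeloid cells, at 14900 and 8520 CPM.

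The comparison set by the rule takes monocytes with 4 or more UMIs of Ly6c2, Chil3, F13a1 and Vcan summed and no UMI of the 5 rule genes. The limits on genes of Kupffer cells, neutrophils, T cells, B cells and plasmacytoid dendritic cells stayed the same. This gave 179 cells in the WT library and 283 in the pool. Those that were also classed as Kupffer cells, type 2 dendritic cells or macrophages chosen on C1q were then left out. The remaining 168 and 254 cells are called comparison monocytes here, and they too went against their name in part. At least 3 UMIs of T and NK cell genes (Nkg7, Gzma, Trac and others) were present in 57 of the 168 (33.9%) and 144 of the 254 (56.7%), against 6 and 11 Ly6i/Cxcl9 cells, and Lyz2 was missing from 54 and 130. Some lymphocytes carry Ly6c2, which alone can meet the limit. The full list of 15 T and NK markers summed to 4210 and 8940 CPM in the comparison monocytes and to 908 and 823 CPM in the Ly6i/Cxcl9 cells, with Cd3e at 0 in all of them by the rule. The 14 neutrophil markers summed to 2870 and 241 CPM against 226 and 193, the 12 endothelial markers to 988 and 317 CPM against 1570 and 1330, and the 14 hepatocyte markers to 1660 and 1620 CPM against 1150 and 2020. A second comparison, chosen after these values were seen, therefore used matched cells: both sides held 4 or more UMIs of the 4 monocyte genes and at least 1 of Ccr2, at most 2 UMIs of 10 T and NK genes and no dendritic markers at the limits above. It set 55 and 151 matched Ly6i/Cxcl9 cells (median 3839 and 6797 UMIs) against 93 and 107 matched monocytes without the rule genes (3235 and 5831 UMIs). Lyz2 was present in 54 of 55 and 150 of 151 of the former and in 91 of 93 and 106 of 107 of the latter.

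A gene counted as higher or lower when the log2 ratio of summed CPM, with 1 UMI added to each side and at least 50 UMIs in both sides together, passed 1 in size, a 2-fold difference. That minimum can be passed through 1 side alone, so a gene high on 1 side is measured more readily than a gene low on both. Counts for the gene lists below are thus out of their measured genes. Among all Ly6i/Cxcl9 cells over comparison monocytes, 244 of 4049 genes were higher (6.03%) and 317 lower (7.83%) in the WT library, and 446 (5.96%) and 571 (7.63%) of 7484 in the pool. With ratios centred on the median of all genes, which was -0.11 in both libraries, the split was 299 higher and 238 lower in the WT library and 523 and 471 in the pool. In both libraries at once, 155 of 4037 genes were higher (3.84%) and 119 lower (2.95%). The 15 higher genes with the largest ratio in both libraries included Xcr1 and Cadm1, which are on the list of type 1 dendritic cell markers, Apol7c, the chemokines Ccl22, Ccl24 and Cxcl16, the interleukin-1 receptor antagonist Il1rn, the aminopeptidase Anpep, and H2-Eb1 and H2-Ab1, beside Gpr141b, AA467197, Sept3, Tspan33 and Bcl2a1a. Xcr1 had 208 and 367 UMIs in the Ly6i/Cxcl9 cells and 0 and 1 in the comparison monocytes. The 15 lower genes included Trac, Nkg7, Gzma and Gzmb, which are on the list of T and NK cell markers, beside Klra8, Klra9, Klre1, Prf1, Cd2, Thy1, Il7r, Ets1, Ablim1, Gimap3 and Gm19585. Gzma had 64 and 56 UMIs against 399 and 2675. In the matched cells, 147 of 1869 genes were higher (7.87%) and 122 lower (6.53%) in the WT library, and 216 (4.53%) and 122 (2.56%) of 4772 in the pool. In both at once 79 of 1864 were higher (4.24%) and 27 lower (1.45%), and the 79 include the rule genes Ly6i, Cxcl9, Cxcl10 and Slamf8, which the choice of cells makes higher. Without rule genes 75 of 1860 were higher. The 27 lower genes include Chil3 and F13a1, whose sum with Ly6c2 and Vcan was used to pick both sides.

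**Figure D3:**
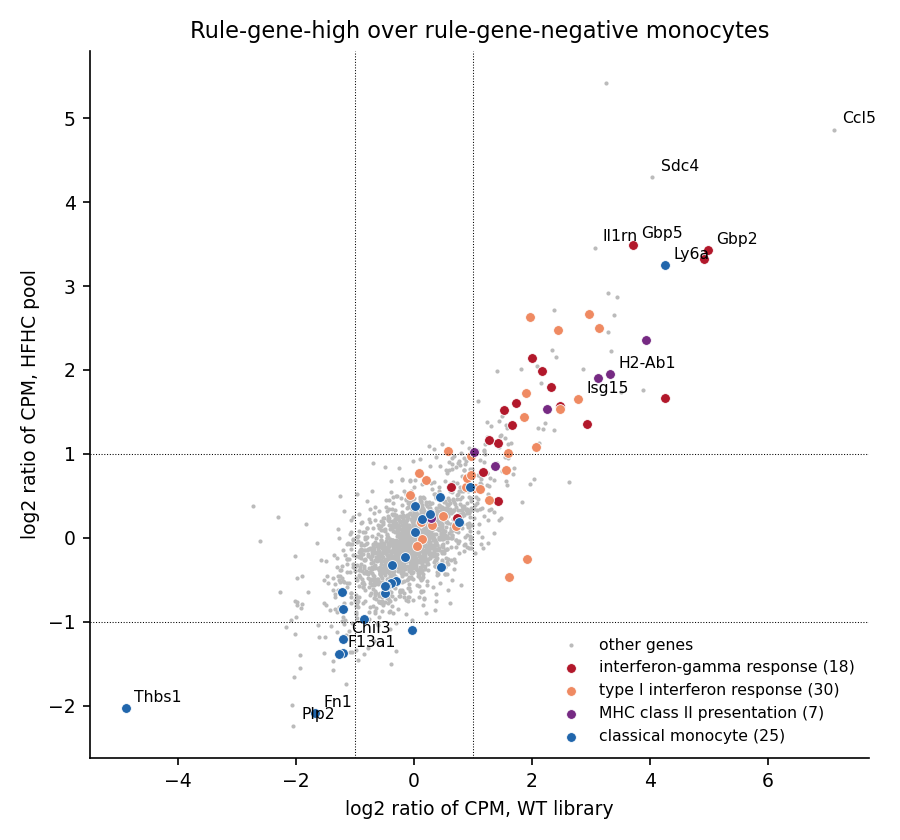
log2 ratio of CPM of matched Ly6i/Cxcl9 cells over matched monocytes in the WT library (horizontal axis) and the HFHC pool (vertical axis), 1 point per gene measured in both, without the rule genes; dotted lines mark a ratio of 1 in size and colours mark 4 gene lists with their number of measured genes. Gbp2 lies at 4.99 and 3.42, H2-Ab1 at 3.33 and 1.95, and Thbs1 at -4.89 and -2.03, and most genes of the classical monocyte list lie near 0 or below it.

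Genes of the interferon-gamma response were mostly higher in the matched Ly6i/Cxcl9 cells. Of 18 measured in the WT library 16 were higher, with a median log2 ratio of 1.86, and of 24 in the pool 19 were, with a median of 1.63, beside -0.07 and -0.06 over all genes. The 14 that were higher in both libraries included Irf1, Ciita, Gbp2, Gbp3, Gbp5, Gbp7, Irgm1, Irgm2, Igtp, Iigp1, Psmb8, Icam1 and Serpina3g. In all Ly6i/Cxcl9 cells over comparison monocytes, 21 of 24 and 14 of 28 were higher, with medians of 1.67 and 1.01. Gbp2 had 295 UMIs in 41 of 55 matched Ly6i/Cxcl9 cells of the WT library (1352 CPM, 1202 to 1515) and 12 UMIs in 8 of 93 matched monocytes (39.5 CPM, 20.4 to 69.0). In the pool it had 1100 UMIs in 108 of 151 cells (1038 CPM, 978 to 1102) and 60 in 30 of 107 (95.2 CPM, 72.7 to 123). The intervals, which cover the counting error of summed UMIs only and not the spread between cells or animals, were far apart in both libraries. Irf1, an interferon-induced transcription factor, stood at 610 and 477 CPM against 211 and 165 CPM, ratios of 1.52 in both libraries. Ciita, the master regulator of MHC class II genes, stood at 348 and 280 CPM against 42.8 and 108 CPM. Gbp5, Gbp2 and their neighbours are paralogs in a cluster, and so are the Ifi200 and MHC genes named below, so their single values are uncertain where reads are shared.

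The mRNAs of the interferon receptors were not higher. Ifngr1, which binds interferon-gamma, stood at 261 and 407 CPM in the matched Ly6i/Cxcl9 cells and at 454 and 448 CPM in the matched monocytes, log2 ratios of -0.78 and -0.14. Ifngr2, the other chain, had ratios of -0.30 and 0.02. Of the 19 genes of interferon receptors and signalling, 0 of 6 measured in the WT library and 1 of 10 in the pool passed 1, with medians of -0.16 and 0.09. Over all genes 7.87% and 4.53% did, and with so few measured genes these counts cannot be told apart from that share. In the WT library the intervals of Ifngr1 (198 to 338 and 382 to 537 CPM) did not overlap, with the matched monocytes the higher. They cover counting error only, not the spread between cells or animals.

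Type I interferon genes were higher too, as a smaller share of the list. Of 30 measured in the WT library 16 were higher (median 1.08) and of 35 in the pool 13 (median 0.71), and 10 were in both: Isg15, Ifit1, Ifit2, Ifit3, Rsad2, Ifi47, Ifi205, Ifih1, Phf11b and Phf11d. Isg15, a ubiquitin-like protein put onto other proteins in the antiviral state, had 63 UMIs in 20 of 55 cells of the WT library (289 CPM, 222 to 369) against 12 in 7 of 93 (39.5 CPM), and 73 UMIs in 33 of 151 cells of the pool (68.9 CPM, 54.0 to 86.6) against 13 in 13 of 107 (20.6 CPM). Fewer cells carried Isg15 than carried Gbp2. Rsad2, which encodes the antiviral enzyme viperin, had 91 UMIs in only 13 of the 55 cells of the WT library.

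Antigen presentation genes went with the same cells. MHC class II genes were higher for 6 of 7 measured in the WT library (median 2.25) and 5 of 7 in the pool (median 1.54), namely H2-Aa, H2-Ab1, H2-Eb1, H2-DMa and Cd74 in both. H2-Ab1 stood at 8409 CPM (8029 to 8803) and 4973 CPM (4839 to 5109) against 836 and 1284 CPM, and had a UMI in 33 of 55 and 119 of 151 cells against 27 of 93 and 53 of 107. H2-Ab1 thus had a UMI in a larger share of cells of the pool, on the side of the matched monocytes too. The matched Ly6i/Cxcl9 cells of the pool were also deeper, with a median of 6797 UMIs against 3839. These shares were not brought to the same depth. Positive Ly6i/Cxcl9 cells of the WT library carried more H2-Ab1 than those of the pool. In all Ly6i/Cxcl9 cells over comparison monocytes the medians of this list were 3.05 and 3.28, with 8 of 9 and 9 of 10 higher, and those comparisons include the dendritic range. The matched cells can still hold dendritic UMIs below the limits. Among 14 type 2 dendritic cell markers, 0 of 1 measured was higher in the matched cells of the WT library. In those of the pool 3 of 4 were, with a median of 1.79. The part of such cells in the MHC class II values was not tested. For MHC class I presentation 6 of 11 (median 1.19) and 8 of 18 (median 0.84) were higher, with H2-Q7, Tap1 and Psme2 in both. Tap1, the peptide transporter, stood at 582 and 321 CPM against 214 and 121 CPM.

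Other genes that stood high in the matched cells of both libraries were outside these lists or in the list of inflammatory effectors, where 6 of 13 (median 0.98) and 11 of 21 (median 1.05) were higher. Il1rn, which encodes the blocker of the interleukin-1 receptor, stood at 380 and 435 CPM against 42.8 and 38.1 CPM. Cd40, the receptor for T cell help, stood at 330 and 147 CPM against 29.6 and 30.2 CPM, and Sod2, mitochondrial superoxide dismutase, at 811 and 524 CPM against 109 and 129 CPM. Ccl5, a chemokine for T cells and also a marker of T and NK cells, had 198 UMIs in 23 of 55 cells and 635 UMIs in 59 of 151 cells, against 1 UMI in 1 of 93 and 12 UMIs in 3 of 107. Its direction turned with the matching, since in all Ly6i/Cxcl9 cells over comparison monocytes, many of which carry T and NK genes, it had log2 ratios of -1.57 and -2.55. The 10 T and NK genes, Nkg7, Gzma and Trac among them and Ccl5 not, were held together to at most 2 UMIs per cell on both sides. Ly6a (Sca-1), the interferon-inducible neighbour of Ly6i, stood at 939 and 165 CPM against 46.1 and 15.9 CPM. Sdc4, a heparan sulfate proteoglycan of the cell surface, had log2 ratios of 4.04 and 4.30, on 4 and 5 UMIs in the matched monocytes. The remaining names among the 15 highest were Gbp5, Serpina3g, Dnase1l3, Ccnd2, Marcksl1, Ifi205, Calhm6, H2-Q7, Ifit2 and AW112010.

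Genes of endothelial cells were higher in the matched cells of the pool as well, and most of their UMIs lay in few cells. Of the 12 endothelial markers 5 could be measured there and 4 were higher, with a median of 4.71, Kdr with 75 UMIs in 11 cells against 0 among them. Without Dnase1l3 and Fcgr2b, which myeloid cells also use, 3 or more UMIs of these markers were held by 4 of 151 matched Ly6i/Cxcl9 cells of the pool and 1 of 107 matched monocytes, and by 3 of 55 and 5 of 93 in the WT library. Those 4 cells of the pool held 296 of its 320 such UMIs. Without all these cells the interferon-gamma list had 15 of 17 and 20 of 24 genes higher, with medians of 1.79 and 1.63, the type I list 18 of 29 and 11 of 34 (1.22 and 0.70), and MHC class II 5 of 7 and 4 of 7 (2.12 and 1.53). Dnase1l3, a secreted nuclease, had a log2 ratio of 4.49 in the pool without them and too few UMIs to be measured in the WT library. Ly6a had 4.16 in the WT library and 2.65 in the pool, down from 3.25. Over all Ly6i/Cxcl9 cells 9 and 27 cells, and 9 and 9 comparison monocytes, held 3 or more such UMIs.

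Classical monocyte genes fell into separate sets. In the matched cells 7 of 25 measured genes of that list were lower and 1 higher in the WT library (median -0.37), and 6 of 26 lower and 1 higher in the pool (median -0.53). Chil3, F13a1, Fn1, Thbs1 and Cd177 were lower in both. Chil3, which encodes a chitinase-like lectin of classical monocytes and is a relative of Chil1, stood at 834 CPM (717 to 964) and 363 CPM (328 to 402) against 1939 (1785 to 2102) and 838 (768 to 913). F13a1, the A chain of coagulation factor XIII, stood at 619 and 443 CPM against 1494 and 1154 CPM. Fn1 (fibronectin) had log2 ratios of -1.68 and -2.09. Thbs1, thrombospondin, had ratios of -4.89 and -2.03, and its 205 UMIs in the matched monocytes of the WT library came from 22 of 93 cells. Ly6c2 was not lower, at 3982 and 1979 CPM against 2337 and 1741 CPM, and neither was Plac8, at 4569 and 4248 CPM against 2357 and 2801 CPM. Ly6c2, Chil3, F13a1 and Vcan were used to pick both sides, which holds their sum at 4 or more in every cell. In all Ly6i/Cxcl9 cells over comparison monocytes, where the rule asks for these genes on the monocyte side only, Ly6c2 was lower, with log2 ratios of -1.11 and -1.41, and the list had 14 of 28 and 8 of 26 genes lower with medians of -0.98 and -0.43. With the monocyte range alone on the side of the Ly6i/Cxcl9 cells the medians turned to 0.04 and 0.19. The other lower genes with the largest ratios in both libraries were Plp2, Mmp8, Add3, Tsc22d3, Hopx, Ifitm6, Nfe2, Ccdc88c, Cast, Svil, Emilin2 and Ms4a8a.

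Macrophage genes were not higher as a list in the matched cells. Of 17 and 28 measured, 2 and 4 were higher and 4 and 1 lower, with medians of -0.07 and -0.04. Axl, a receptor for dying cells that interferon also induces, and Aif1 were the ones higher in both libraries. Adgre1 stood at 183 and 161 CPM against 207 and 254 CPM, and Apoe had ratios of -1.02 and -0.33. C1qb, of the complement initiator C1q, stood at 367 CPM (291 to 456) and 214 CPM (187 to 244) against 188 (142 to 243) and 233 (197 to 274), and 3 or more UMIs of C1q were held by 9 of 55 and 21 of 151 cells against 4 of 93 and 9 of 107. Cx3cr1, a receptor of non-classical monocytes and of monocytes on the way to macrophages, had ratios of -1.52 and -0.78. In all Ly6i/Cxcl9 cells of the pool over comparison monocytes the macrophage list had a median of 1.04 with 15 of 29 higher, a value that turned with the matching. In the WT library the same comparison gave -0.02. Glycolysis genes of the matched cells were on the higher side without passing 1, with 0 of 10 and 0 of 18 past it and medians of 0.61 and 0.40. In all Ly6i/Cxcl9 cells over comparison monocytes 4 of 18 and 5 of 22 were higher and 0 and 1 lower, with medians of 0.68 and 0.58. Hk2 and Hk3 were higher there in both libraries. In matched cells the list of itaconate and the citric acid cycle had medians of 0.03 and -0.08, and tissue dissociation genes -0.23 and -0.17.

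**Figure D4:**
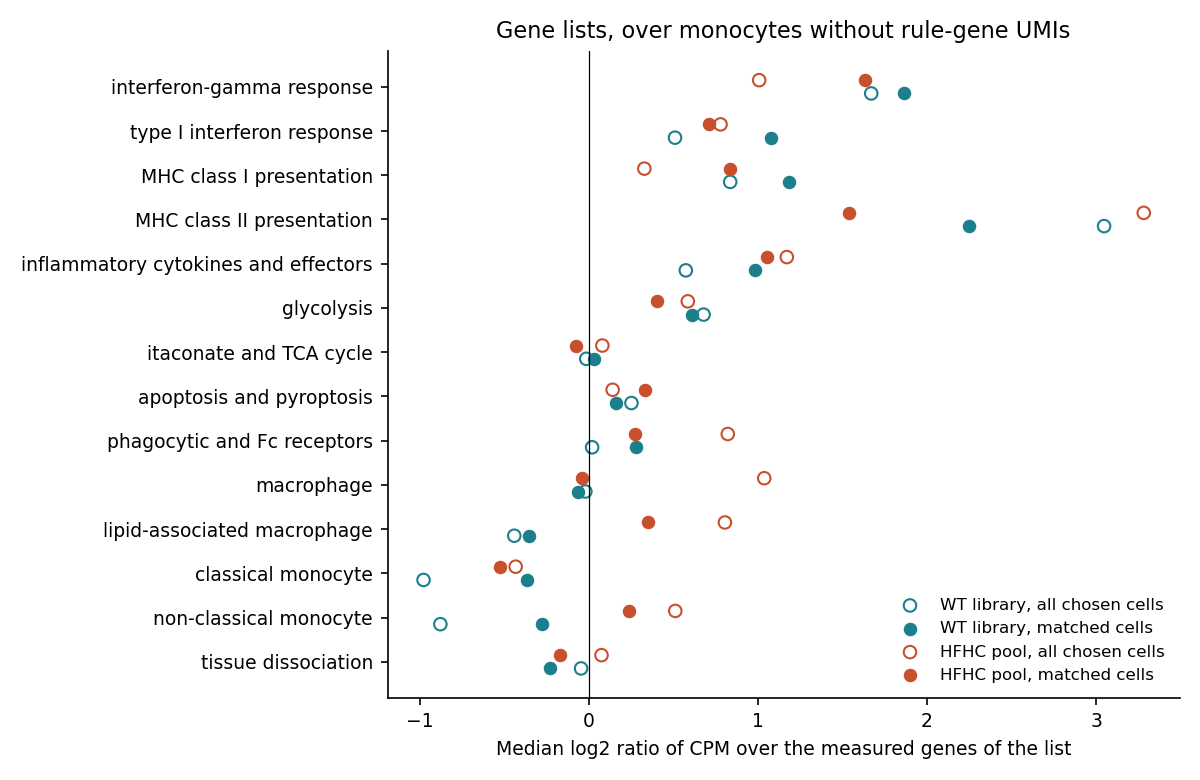
Median log2 ratio over the measured genes of 14 lists (horizontal axis) for all Ly6i/Cxcl9 cells over comparison monocytes (open circles) and for matched cells (filled circles), in the WT library and the HFHC pool. In matched cells the interferon-gamma list lies at 1.86 and 1.63 and MHC class II at 2.25 and 1.54, and the macrophage list moves from 1.04 to -0.04 in the pool.

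The promoters of the genes that stood apart can be set beside the sequences above. A response element was found in 21 of 67 genes that were higher in both libraries in matched cells (31.3%) and in 2 of 19 that were lower, against 96 of 1467 genes measured in both (6.54%) and 3.99% of all genes. Without rule genes, which are higher by the choice of cells, 19 of 64 higher genes (29.7%) held one. The 21 included Gbp2, Gbp3, Gbp5, Gbp7, Irgm1, Irgm2, Igtp, Isg15, Ifit1, Ifit3, Rsad2, Cxcl10 and Slamf8. A gamma-activated site was found in 13 of 67 higher genes (19.4%) and 6 of 19 lower genes, against 123 of 1467 measured genes (8.38%) and 9.55% of all genes, with Irf1, Icam1, Psmb8, Serpina3g, Sod2, Gbp5 and Igtp among the higher and Chil3 among the lower. In the 200 bases nearest the start a gamma-activated site was left in 11 of 67 higher genes (16.4%) and 2 of 19 lower genes (10.5%), which turns their order, and Chil3 held none there. A response element was left in 18 of 67 higher genes (26.9%) and 1 of 19 lower genes. Those of Aif1, Cxcl10 and Gbp5 were lost in that window, 2 of which are among the sequences shown. In the interferon-gamma list 12 of 21 promoters (57.1%) held each kind of element, in the type I list 20 of 33 (60.6%) held a response element and 3 (9.09%) a gamma-activated site, and in the classical monocyte list 0 of 20 held a response element. Of the rule genes 4 had a promoter in the table and none of them held a gamma-activated site. A match is a description of these letters in this window and not a measured binding site.

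Levels of several genes differed along the number of rule-gene UMIs. Matched cells, with those at 1 or 2 UMIs included, were thinned to 2000 UMIs, and shallower cells were left out. The cells left out were 2 and 1 matched Ly6i/Cxcl9 cells, 14 and 2 matched monocytes, and 3 and 2 of those at 1 or 2 UMIs. The rest were sorted by the 5-gene sum at that depth into 0, 1 to 2, 3 to 9 and 10 or more. These bins held 92, 33, 13 and 32 cells in the WT library and 171, 81, 57 and 32 in the pool. Values are mean UMIs per 2000. Gbp2 went from 0.087 over 0.788 and 1.85 to 2.47 in the WT library and from 0.228 over 0.790 and 1.84 to 5.50 in the pool. Irf1 went from 0.478 and 0.345 at a sum of 0 to 1.53 and 1.66 at 10 or more, and Sod2 from 0.228 and 0.333 to 1.53 and 2.22. At a thinned sum of 1 to 2 the intervals lay above those at 0, for Gbp2 and Sod2 in both libraries and for Irf1 in the pool. Such intervals cover the counting error of summed UMIs only, not the spread between cells or animals. Cells of the bins 0 and 1 to 2 can hold 3 or more rule-gene UMIs at their full depth, so these values do not describe cells below the limit of the rule. H2-Ab1 was highest at 3 to 9, with 25.8 and 11.3, and lower at 10 or more, with 11.8 and 8.84, though that bin holds only 13 cells in the WT library. Chil3 went from 3.66 to 1.81 and from 1.67 to 0.406, F13a1 from 3.16 to 1.72 and from 2.11 to 0.969, and Cx3cr1 from 1.59 to 0.469 and from 1.32 to 0.5. Ly6c2 went from 4.57 to 7.19 and from 3.94 to 5.41, and Plac8 from 4.98 to 11.5 and from 6.11 to 9.75. Ly6c2, Chil3, F13a1 and Vcan together had to reach 4 UMIs at full depth in every one of these cells. A cell with more Ly6c2 could thus enter with less Chil3 and F13a1, and the part of this choice was not tested. Adgre1 stayed between 0.231 and 0.439 in all bins. C1qb ended at 0.875 and 0.406 from 0.207 and 0.287.

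**Figure D5:**
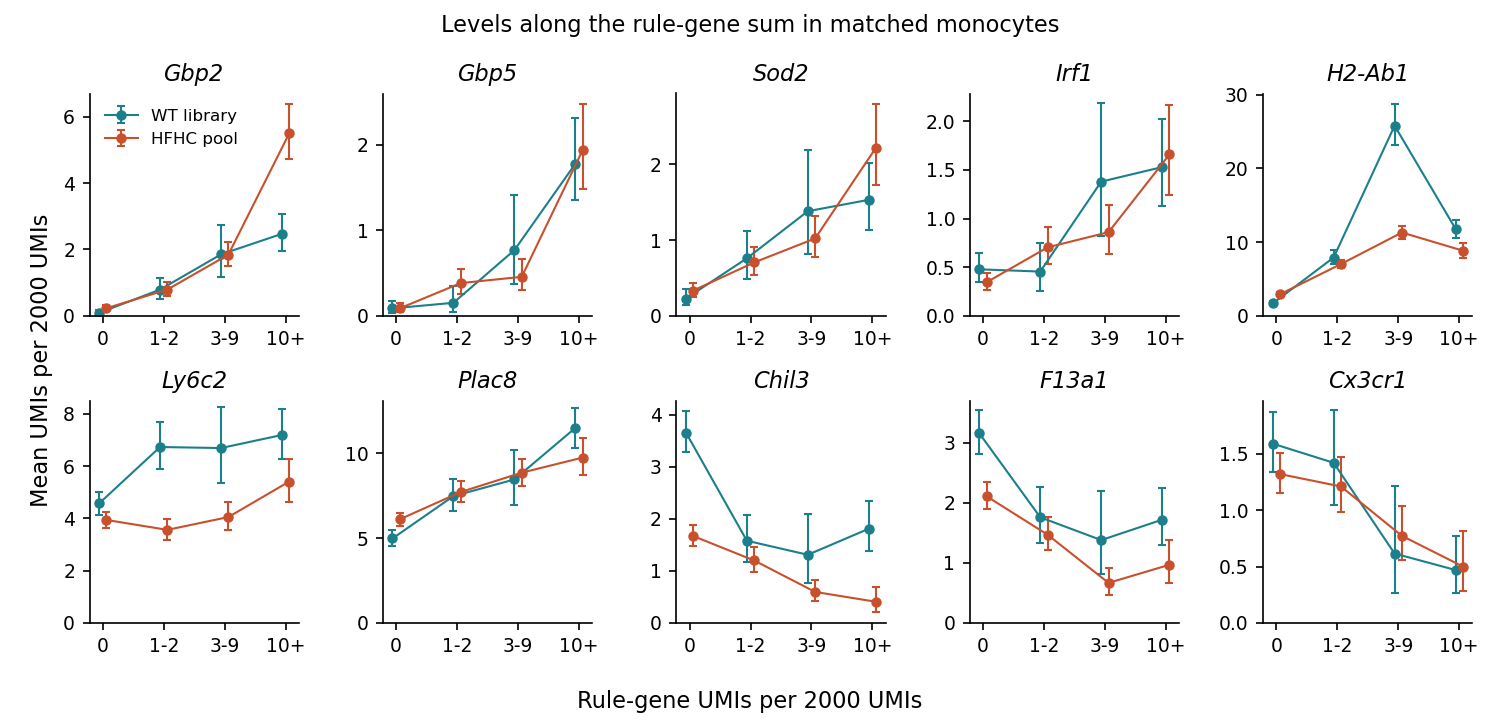
Mean UMIs per 2000 UMIs (vertical axes, each from 0) of 10 genes in matched cells sorted by their rule-gene UMIs at the same depth (horizontal axis), with exact Poisson 95% intervals, in the WT library and the HFHC pool. Gbp2, Gbp5, Sod2, Irf1 and Plac8 are higher at 10 or more than at 0, Chil3, F13a1 and Cx3cr1 are lower, and H2-Ab1 peaks at 3 to 9. Ly6c2, Chil3 and F13a1 were among the genes used to pick the matched cells.

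Across all Ly6i/Cxcl9 cells, thinned to 2000 UMIs, the genes outside the rule that went most with the 5-gene sum among 1165 compared included Gbp2, with Spearman's rho of 0.50 in the WT library and 0.51 in the pool, then Prdx5 (0.41 and 0.37), B2m (0.40 and 0.35), Samhd1 (0.44 and 0.31), Gbp5 (0.43 and 0.30), Clic4, Icam1, Sod2 and Cd40. These are descriptions over 159 and 346 cells that share a library, with no p-value.

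The Ly6i/Cxcl9 cells of the pool were also set beside those of the WT library, with other cells of the same libraries as a background. Of 6969 genes, 491 were higher in the pool (7.05%) and 203 lower (2.91%), and in comparison monocytes 328 (6.51%) and 181 (3.59%) of 5038. Gnb2, a G protein subunit, had the largest log2 ratio, 3.82, and had 4.04 in comparison monocytes and 4.005 in B cells. Fosb, an immediate early gene, had 3.31, 2.81 and 3.25 in the same order. The 22 genes induced by tissue dissociation were higher for 15 of 21 measured in Ly6i/Cxcl9 cells (median 1.25) and for 11 of 20 in comparison monocytes (median 1.14). Of the other named higher genes, Gm9844, Ppp1r15a, Ctsd, Rgs1, Ier2, Nrbp1, Gm6377 and Ccrl2, Ccrl2, an atypical chemoattractant receptor, had 2.78 in Ly6i/Cxcl9 cells, 1.18 in comparison monocytes and 2.84 in B cells. The part of dissociation and of the library in these values was not tested. The lowest were S100a9 (-2.87, with -7.19 in comparison monocytes and -3.25 in B cells), Mup7, Slfn4, Ccl24, Slc30a4, Mgl2, Ptprcap, Mmp25, Sept3 and Ddit4. Markers of other cell types moved as well. Of the type 1 dendritic cell markers 0 of 10 were higher in the pool and 4 lower (median -0.96). Hepatocyte markers had 6 of 13 higher and 0 lower (0.69), and Kupffer cell markers 5 of 10 higher and 1 lower (0.92). The part of the mix of cells in these ratios was not tested.

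Among matched Ly6i/Cxcl9 cells, 315 of 3945 genes were higher (7.98%) and 200 lower (5.07%) in the pool than in the WT library, and among matched monocytes 152 (4.85%) and 117 (3.73%) of 3137 were. Of the type I interferon list 0 of 35 were higher and 14 lower with a median of -0.82, and in the matched monocytes 0 and 5 of 23 with -0.55. Of the interferon-gamma list 1 of 25 was higher and 5 lower with -0.68, and in the matched monocytes 2 and 0 of 15 with -0.13. Log2 ratios of pool over WT library were -2.07 for Isg15, -2.34 for Ifit1, -2.57 for Ifit3 and -2.52 for Rsad2, and Ly6a had -2.51. In the matched monocytes Isg15 stood at 20.6 CPM in the pool and 39.5 in the WT library, and Ly6a at 15.9 and 46.1. Gbp2 had -0.38 and Irf1 -0.36. The limit of 3 rule-gene UMIs was the same in both libraries, while these cells were deeper in the pool (median 6797 against 3839 UMIs). Thinned to 2000 UMIs, matched cells with 10 or more rule-gene UMIs held Gbp2 at 5.50 in the pool and 2.47 in the WT library, and Irf1 at 1.66 and 1.53. At 3 to 9, Gbp2 stood at 1.84 and 1.85 and Irf1 at 0.86 and 1.38. The part of depth in the ratios was not tested. Il1b, the interleukin-1 beta gene, was higher in the pool, at 535 CPM (492 to 581) against 124 CPM (81.5 to 180), and so it was in the matched monocytes, at 227 against 32.9 CPM. Over all Ly6i/Cxcl9 cells the type I list had 1 of 39 genes higher and 6 lower in the pool with a median of -0.31, and comparison monocytes gave 0 and 5 of 26 with -0.34. The interferon-gamma list had 0 of 28 higher and 4 lower with -0.47, beside 3 and 1 of 19 with 0.21 in comparison monocytes. Whether the libraries differ in this could not be tested with 1 library each.

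Chil1 itself was all but absent. It had 1 UMI in 1 of 168 Ly6i/Cxcl9 cells of the WT library and 0 UMIs in the 350 of the pool, which mixes wild-type and knockout cells, and comparison monocytes had 6 UMIs in 2 cells and 0. At 2000 UMIs per cell no Ly6i/Cxcl9 cell had a Chil1 UMI, which allows a share of cells with a UMI at that depth of up to 2.29% and 1.06% (upper end of the exact binomial interval). It sets no limit on the share of cells that express the gene.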

How the data were processed

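Liver cells of mice were captured on the BD Rhapsody system, and the authors deposited whole-number UMI counts per cell and gene, made per the file headers with the BD Rhapsody WTA Analysis Pipeline 1.10.1 (genome GRCm38, GENCODE vM19, RSEC-corrected molecules, putative cells). The tables were used as deposited. Cells with 200 to 4000 genes and at most 25% mitochondrial UMIs were kept. UMIs were summed per library and class of cells and given as CPM with exact Poisson 95% intervals, and shares with exact binomial intervals, all covering counting error only. Log2 ratios used 1 added UMI and genes with at least 50 UMIs. Thinning drew 2000 UMIs per cell (seed 42). The computation of ratios and counts of genes was tested on simulated data. Python 3.11.15, numpy 2.4.6, scipy 1.17.1, pandas 2.3.3 and scanpy 1.11.5 (Scrublet) were used. Each condition being a single library, no p-value was computed.

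The members and the gene lists were chosen with earlier results of these data known. Named genes were those of the rule, genes of the lists, the 15 highest and 15 lowest by the smaller ratio of both libraries, the 10 highest and 10 lowest between libraries, the 10 that went most with the 5-gene sum, and Chil1. The matched cells, and the same cells without endothelial UMIs, were added after the first results were seen. The alternatives were other limits, UMI minimums, scalings, thinning and promoter windows. Some genes that the rule for named genes covers are not reported here.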

Additional observations from a re-analysis of the deposited data

Results flagged for a closer look

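For 2 genes of lipid-laden macrophages the difference between Ly6i/Cxcl9 cells and comparison monocytes had opposite signs in the libraries, and this difference was not tested. Fabp5, a fatty acid binding protein, had a log2 ratio of -1.06 in the WT library (46.2 against 96.5 CPM) and 2.19 in the pool (127 against 26.9 CPM). Gpnmb, a glycoprotein of lysosome-rich macrophages, had -2.30 (17.5 against 90.2 CPM) and 3.59 (85.8 against 6.28 CPM). In matched cells of the pool the ratios were 0.85 for Fabp5 and -0.38 for Gpnmb.

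Cells over the limit of 4000 genes lie outside all comparisons. Of 67 such cells in the WT library and 812 in the pool, 1 and 18 met the other limits of the rule.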

How the results depend on the processing

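No paired analysis was possible because each condition has 1 library, and for the same reason no replicate could be left out. The share of Ly6i/Cxcl9 cells was 0.849% in the WT library with a mitochondrial limit of 10%, 0.904% and 2.26% (WT library and pool) with a 5-gene sum of 2 or more, 0.578% and 1.33% with 5 or more, 1.42% and 2.17% with the rule on cells thinned to 2000 UMIs, and 50% and 57.9% of these cells plus comparison monocytes. Counts of genes past 2-fold are given as higher and lower in the WT library, higher and lower in the pool, then higher and lower in the pool over the WT library. They were 128, 139, 284, 345, 215 and 104 with each cell thinned, 70, 73, 194, 154, 180 and 49 with a minimum of 200 UMIs, and 1002, 2506, 1213, 2887, 1181 and 1840 with no minimum. Matched cells gave 147, 122, 216 and 122 and, without endothelial UMIs, 137, 111, 207 and 123. Genes higher in the pool over the WT library numbered 315 and 290 in those cells, 293 with the rule on thinned cells, 273 with 5 UMIs added and 313 in the monocyte range only. Genes lower in the WT library were 211 without dendritic markers, and those lower in the pool 283 with comparison monocytes at most at 2 T and NK UMIs. In the 200 bases nearest the start, 2.39% of all genes held a response element and 6.27% a gamma-activated site, and the share of lower genes with such a site went from 31.6% to 10.5%, below the 16.4% of higher genes. The macrophage list of the pool reversed, from 1.04 to -0.0435 in matched cells and -0.0901 without endothelial UMIs. Fewer genes or cells enter these counts by construction, and other causes were not tested. Over 23 settings the interferon-gamma medians ran from 1.52 to 1.95 in the WT library and 0.87 to 1.63 in the pool, MHC class II from 2.12 to 3.27 and 1.53 to 3.39, and type I from 0.29 to 1.71 and 0.34 to 1.1, with no change of sign. The classical monocyte median of the pool was 0.01 with the mean of the CPM of each cell.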
